A study of Homo sapiens with 6 samples.

Results

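The 10 genes described here are factors, regulators and targets of the YAP/TEAD pathway: YAP1, WWTR1, TEAD1, TEAD4, LATS2, AJUBA, AMOTL2, CCN1, CCN2 and ANKRD1. They were taken as a list of symbols and matched to 10 of the 60483 Ensembl gene ids in the count tables, where CCN1 and CCN2 are the genes called CYR61 and CTGF in GENCODE 29. All 10 passed the filter on low counts and were among the 14732 genes tested. ANKRD1 passed it through the transfected libraries, in which its level was highest, so its values against NT are not independent of the filter.

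YAP1 and WWTR1 (also called TAZ) are transcriptional coactivators that do not bind DNA themselves and act on genes through the TEAD family of DNA-binding proteins. In the Hippo pathway, the MST kinases activate the LATS kinases, which phosphorylate YAP1 and WWTR1 and so keep them out of the nucleus. The pathway responds to cell density, cell shape and matrix stiffness, and its activity is usually read from targets such as CCN1, CCN2 and ANKRD1. Since phosphorylation and localisation set much of this activity, RNA levels of the factors do not measure it.

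RNA was sequenced from T98G, an established human glioblastoma line, in 6 libraries that form 3 groups of 2. The oeSRPK1 cells were transiently transfected with a pcDNA3.1 plasmid carrying full-length SRPK1, a kinase of SR splicing factors, and the shSRPK1 cells with a pLKO.1 plasmid carrying a short hairpin against SRPK1. The NT cells were untreated, so in both comparisons with NT the transfection and the change of SRPK1 cannot be told apart. The oeSRPK1 and shSRPK1 cells received different plasmids, and no library came from cells with an empty plasmid or a control hairpin. In oeSRPK1 against shSRPK1 the plasmid and the change of SRPK1 therefore cannot be told apart either. A transient transfection also leaves some cells without plasmid, and the share that took it up was not analysed here. The libraries of a group are called biological replicates, but whether they came from separate cultures is not stated. The p-values therefore rest on differences between the sequenced samples only, and these can be technical.

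Reads assigned to genes numbered 22691215 and 3891549 in oeSRPK1 libraries 1 and 2, 13650909 and 10792385 in shSRPK1 libraries 1 and 2, and 9891606 and 13634038 in NT libraries 1 and 2. SRPK1 itself had 190.3 and 168.0 normalised CPM (read counts scaled to the library's size, corrected by TMM) in the oeSRPK1 libraries, 113 and 140.1 in the shSRPK1 libraries, and 153 and 140.4 in the NT libraries. It was higher in oeSRPK1 than in shSRPK1 cells (log2 fold change 0.50 ± 0.14, SE, edgeR adjusted p = 0.0377), but did not pass the test in oeSRPK1 against NT (0.29 ± 0.14, edgeR adjusted p = 0.175) or in shSRPK1 against NT (-0.21 ± 0.14, edgeR adjusted p = 0.360). Reads from the plasmid and from the cells' own SRPK1 gene could not be separated. Of 8 glial and glioma markers, VIM and CD44 were high in all 6 libraries, while S100B and SOX2 had no read in any and GFAP, OLIG1, OLIG2 and NES lay at or under 3.28 normalised CPM. OLIG2 had 3.28 and 2.07 normalised CPM in oeSRPK1, 1.06 and 1.05 in shSRPK1, and 1.17 and 0.777 in NT, and was called higher in oeSRPK1 against NT (ratio 3.03, edgeR adjusted p = 0.0262) and in oeSRPK1 against shSRPK1 (2.73, edgeR adjusted p = 0.0331). Both calls rest on 73 and 8 reads in oeSRPK1, 14 and 11 in shSRPK1, and 12 and 11 in NT, and both ended with DESeq2 and without any 1 of the oeSRPK1 and NT libraries. The shSRPK1 libraries differed from each other more than those of the other groups: the median absolute log2 difference between a group's libraries was 0.272 in shSRPK1, against 0.162 in oeSRPK1 and 0.132 in NT. Several results below turn on these libraries, and are given with and without them. Where a library was left out of the fit, the spread of its group was taken from the remaining groups.

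Of 25 skeletal and cardiac muscle marker genes, 23 and 22 had reads in oeSRPK1 libraries 1 and 2, 13 and 18 in shSRPK1, and 10 and 10 in NT, and TNNT2 had none in any library. Their summed level was 396 and 3631 normalised CPM in oeSRPK1 libraries 1 and 2, 77.4 and 84.8 in shSRPK1, and 70.4 and 72.7 in NT. Without TNNT1, which was present in every group, the sums were 288 and 3511 in oeSRPK1, 3.47 and 19.1 in shSRPK1, and 2.62 and 3.39 in NT. The part of the muscle transcripts in the results below was not tested. Leaving these genes out of the table before scaling changed no call among the 10 genes. That step kept any muscle reads in all other genes, so it cannot show what part they had.

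The promoters of 4 regulators and targets are shown because they hold the letters GGAATG, the core of the sequence that TEAD proteins bind, or the reverse complement CATTCC. The sequences are the 250 bases before a transcription start in RefSeq (GRCh38.p14), written on the strand of the gene, with the matched letters in capitals. CCN2 lies at chr6:131951373-131951622, ANKRD1 at chr10:90921088-90921337, AMOTL2 at chr3:134374448-134374697 and AJUBA at chr14:22976843-22977092, all on the minus strand. For AMOTL2 and AJUBA the RefSeq table held a further start, upstream of the one shown, whose window had no match. These starts lay at 134375417 for AMOTL2 and 22982551 for AJUBA, against 134374447 and 22976842 for the windows shown. The windows shown for these genes were picked because they held a match.
CCN2: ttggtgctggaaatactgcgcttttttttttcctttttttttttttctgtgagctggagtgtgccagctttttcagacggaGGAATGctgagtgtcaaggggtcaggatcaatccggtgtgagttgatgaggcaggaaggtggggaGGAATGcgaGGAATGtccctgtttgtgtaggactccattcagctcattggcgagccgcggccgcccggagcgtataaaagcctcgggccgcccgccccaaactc
ANKRD1: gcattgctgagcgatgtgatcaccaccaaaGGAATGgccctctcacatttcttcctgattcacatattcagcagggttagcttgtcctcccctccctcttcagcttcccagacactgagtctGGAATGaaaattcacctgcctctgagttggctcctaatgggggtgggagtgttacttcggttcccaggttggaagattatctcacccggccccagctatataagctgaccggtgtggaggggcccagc
AMOTL2: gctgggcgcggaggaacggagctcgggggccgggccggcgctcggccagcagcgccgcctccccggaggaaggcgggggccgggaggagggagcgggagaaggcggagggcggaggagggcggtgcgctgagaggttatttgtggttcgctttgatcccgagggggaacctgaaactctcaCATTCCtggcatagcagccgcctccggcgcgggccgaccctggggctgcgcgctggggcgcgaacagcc
AJUBA: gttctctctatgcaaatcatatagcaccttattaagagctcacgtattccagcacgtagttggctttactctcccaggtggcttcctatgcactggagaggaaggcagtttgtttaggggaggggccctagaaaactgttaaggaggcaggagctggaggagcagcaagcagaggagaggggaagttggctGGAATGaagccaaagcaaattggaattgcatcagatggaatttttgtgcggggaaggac

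CCN2 held 3 matches, counted back from the start at bases 169 to 164, 104 to 99 and 95 to 90. ANKRD1 held 2, at bases 220 to 215 and 128 to 123. In the windows shown, AMOTL2 held 1 as CATTCC at bases 69 to 64, and AJUBA held 1 at bases 59 to 54. The YAP1 promoter, not printed, held 1 at bases 162 to 157. Of the 10 genes, 7 were in the RefSeq table with 10 windows, and 5 of these windows, from 5 genes, held a match on either strand. LATS2 had no match, nor had either window of WWTR1. CCN1, TEAD1 and TEAD4 were not in the RefSeq table, so their promoters were not checked. Across RefSeq genes, 4175 of 35116 windows of 250 bases held at least 1 match (11.89%), and 28 held 3 or more (0.07974%), as CCN2 did. A match is a description of the letters and does not show that TEAD proteins were bound there.

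Per kilobase of exon, a scale on which genes can be set side by side only roughly, the 10 genes spanned a wide range in every group. The length used is that of all annotated exons of a gene together, so a gene that uses only part of them appears lower. The order of genes and the shares within families given below depend on this length. YAP1 had the highest level in oeSRPK1 cells, 55.7 ± 2.66 normalised CPM per kb (SD, n = 2), followed by CCN1 at 43.3 ± 1.25. In shSRPK1 cells CCN1 stood at 56.8 ± 18.4 and YAP1 at 46.5 ± 14.6 normalised CPM per kb, and the order of these genes differed between the 2 libraries. In NT cells CCN1 was first, at 56.1 ± 8.60, and YAP1 followed at 45.6 ± 2.30 normalised CPM per kb. TEAD1, WWTR1, CCN2 and AMOTL2 came next in all 3 groups, from 30.9 down to 9.48 normalised CPM per kb. TEAD1 and WWTR1 were not separated beyond their spread in NT cells (22.6 ± 1.17 and 21.2 ± 0.881 normalised CPM per kb). LATS2, TEAD4 and AJUBA lay between 3.73 and 7.43, and ANKRD1 was last in every group, at 0.858 ± 0.105 in oeSRPK1, 1.01 ± 0.948 in shSRPK1 and 0.265 ± 0.0284 normalised CPM per kb in NT. In bulk RNA such levels do not separate how many cells express a gene from how much RNA each of them holds.

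**Figure D1:**
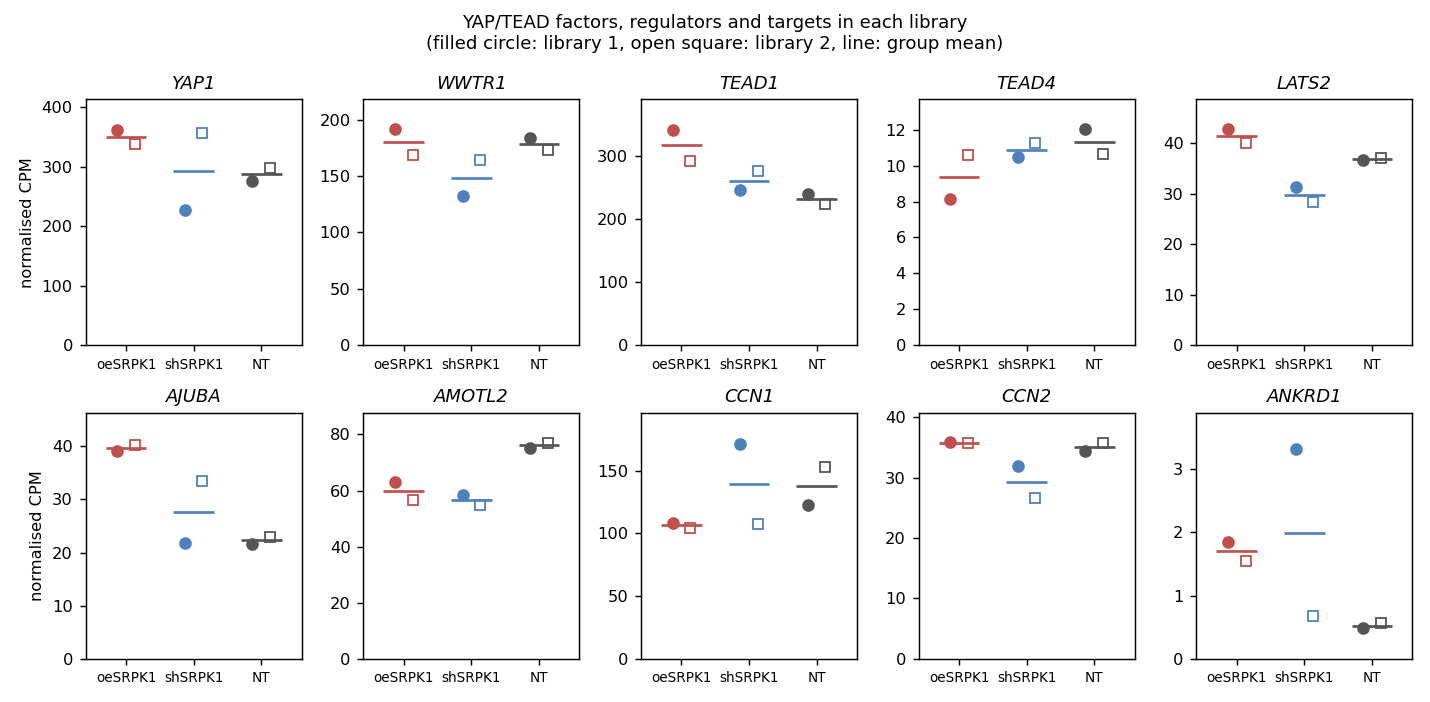
Normalised CPM of the 10 genes in each library, by group (x axis), with a filled circle for library 1, an open square for library 2 and a line at the group mean. AJUBA lay at 39.1 and 40.3 in oeSRPK1 cells, above the other 4 libraries, and the shSRPK1 libraries lay far apart for YAP1, AJUBA, CCN1 and ANKRD1.

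TEAD1 and AJUBA rose in oeSRPK1 against NT, and the other 8 genes did not pass the test. This made 2 of 10 genes called by edgeR (adjusted p under 0.05), both higher, beside 20.6% of all tested genes called in either direction (11.2% higher and 9.45% lower), so the share was near the background. The groups did not overlap for 8 of the 10, with 5 above and 3 below NT, beside 70.5% of all tested genes. The median log2 fold change of the 10 was 0.10, against -0.00 over all tested genes, and their median absolute log2 fold change was 0.33, against 0.34 over all. In shSRPK1 against NT, edgeR called 0 of 10 beside 9.18% of all tested genes (5.43% higher and 3.75% lower). DESeq2 also called 0, beside 858 higher and 576 lower of all 14732 tested genes, as did limma-voom, beside 787 and 580. Of the 10, 3 had an unadjusted p under 0.05 by edgeR, beside 4237 of the 14732. There the groups did not overlap for 6 of the 10, with 2 above and 4 below, beside 57.5% of all tested genes. ANKRD1, which passed the filter through transfected libraries, is among those above NT in both comparisons and among the 3 with an unadjusted p under 0.05. LATS2 alone rose in oeSRPK1 against shSRPK1, 1 of 10 beside 22.8% called in either direction (11.5% higher and 11.3% lower), and the groups did not overlap for 5 of the 10, beside 62.3%. The median absolute log2 fold change of the 10 was 0.26 in shSRPK1 against NT (0.29 over all tested genes) and 0.28 in oeSRPK1 against shSRPK1 (0.37 over all). Each pair of comparisons shares 2 libraries, so their values are not independent.

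Leaving out a library moved the share of all tested genes that edgeR called, and the counts of members and list genes given for such fits stand beside these shares. In oeSRPK1 against NT the share was 1.94% to 6.36% without an oeSRPK1 or NT library, 41.8% without shSRPK1 library 1 and 40.5% without shSRPK1 library 2. In shSRPK1 against NT it was 0.182% to 1.68% without an oeSRPK1 or NT library, 25.9% without shSRPK1 library 1 and 29.01% without shSRPK1 library 2. In oeSRPK1 against shSRPK1 it was 0.952% to 9.89% without an oeSRPK1 or NT library, 36.1% without shSRPK1 library 1 and 38.8% without shSRPK1 library 2. Calls that appear when a shSRPK1 library is left out therefore came together with many more calls over all genes.

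**Figure D2:**
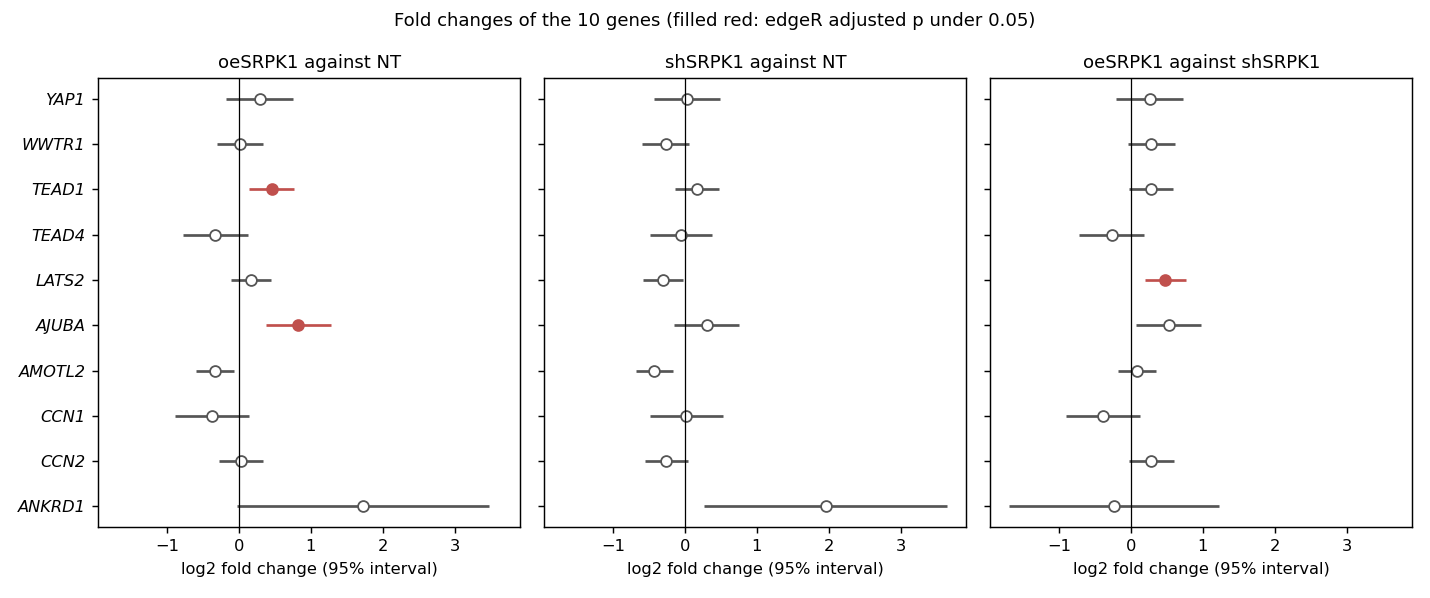
EdgeR log2 fold changes of the 10 genes with 95% intervals (x axis) in each of the 3 comparisons, with filled red points for adjusted p under 0.05. The filled points are TEAD1 and AJUBA in oeSRPK1 against NT and LATS2 in oeSRPK1 against shSRPK1, and ANKRD1 has the widest intervals.

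Among the coactivators, YAP1 (ENSG00000137693.12, GRCh38 chromosome 11, 102110461 to 102233423, plus strand) had 362 and 339 normalised CPM in oeSRPK1, 228 and 358 in shSRPK1, and 277 and 297 in NT libraries 1 and 2. Both oeSRPK1 libraries lay above both NT libraries, while the shSRPK1 libraries lay on either side of NT. The ratio was 1.22 in oeSRPK1 against NT (95% interval 0.886 to 1.68, edgeR adjusted p = 0.339) and 1.02 in shSRPK1 against NT (0.741 to 1.40, edgeR adjusted p = 0.942), neither passing the test. The value of shSRPK1 against NT depended on single shSRPK1 libraries. Without library 1 the log2 fold change of shSRPK1 against NT was 0.32 (edgeR adjusted p = 0.0373), and without library 2 it was -0.33 (edgeR adjusted p = 0.0313), 2 calls of opposite sign. The log2 fold change of 0.29 ± 0.20 in oeSRPK1 against NT moved by less than its SE, to 0.26 without shSRPK1 library 1 and 0.25 without library 2, but was called in both fits (edgeR adjusted p = 0.0288 and 0.0327). For oeSRPK1 against shSRPK1 the value was 0.26 ± 0.20 (edgeR adjusted p = 0.373), and 0.58 without shSRPK1 library 2 (edgeR adjusted p = 0.000422), against -0.06 without library 1. Over all leave-one-out fits the edgeR adjusted p of YAP1 ran from 0.0288 to 0.719 in oeSRPK1 against NT, from 0.0313 to 0.978 in shSRPK1 against NT and from 0.000422 to 0.746 in oeSRPK1 against shSRPK1.

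WWTR1 (ENSG00000018408.13, chromosome 3, 149517235 to 149736714, minus strand) was measured at 192 and 168 normalised CPM in oeSRPK1, 133 and 164 in shSRPK1, and 184 and 173 in NT. The oeSRPK1 and NT libraries overlapped, and both shSRPK1 libraries were below both groups. The ratio was 1.01 in oeSRPK1 against NT (95% interval 0.808 to 1.26, edgeR adjusted p = 0.957) and 0.830 in shSRPK1 against NT (0.664 to 1.04, edgeR adjusted p = 0.242), with no call. Without shSRPK1 library 2, edgeR called WWTR1 lower in shSRPK1 against NT (log2 fold change -0.43, adjusted p = 0.00838) and higher in oeSRPK1 against shSRPK1 (0.41, adjusted p = 0.00868, against 0.28 ± 0.14 and 0.177 with all libraries). Its leave-one-out fits gave an edgeR adjusted p of 0.00838 to 0.665 and of 0.00868 to 0.676 in these comparisons. YAP1 held 72.3 ± 0.877% of the summed YAP1 and WWTR1 level per kb in oeSRPK1, 72.1 ± 3.39% in shSRPK1 and 68.2 ± 2.00% in NT (SD, n = 2 each). The antisense gene AP000942.2 shares 628 bases of exon with YAP1 (9.975% of its exons) and WWTR1-AS1 shares 795 with WWTR1 (9.45%). With no strand setting stated, it cannot be told whether reads in these bases were counted, or for which gene.

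TEAD1 (ENSG00000187079.13, chromosome 11, 12674591 to 12944483, plus strand), the TEAD factor with the highest level per kb here, had 343 and 293 normalised CPM in oeSRPK1, 246 and 277 in shSRPK1, and 241 and 224 in NT. All oeSRPK1 values were above all shSRPK1 values, which were above all NT values. It rose 1.37-fold in oeSRPK1 against NT (log2 fold change 0.46 ± 0.13, edgeR adjusted p = 0.0469), with a 95% interval of 1.11 to 1.70 for the ratio. The call sat close to the threshold: the adjusted p was 0.216 without NT library 1, 0.292 without NT library 2, 0.373 without oeSRPK1 library 1 and 0.0984 without oeSRPK1 library 2, within a range of 0.00139 to 0.373 over the leave-one-out fits of edgeR. It also missed the threshold with DESeq2 size factors (edgeR adjusted p = 0.0534), upper-quartile scaling (0.0656), no filter (0.0532) and all libraries thinned to the shallowest (0.0503), with a log2 fold change of 0.39 to 0.48. TEAD1 did not pass in shSRPK1 against NT (ratio 1.13, 0.911 to 1.39, edgeR adjusted p = 0.428) or in oeSRPK1 against shSRPK1 (1.22, 0.983 to 1.51, edgeR adjusted p = 0.160). The last was called without shSRPK1 library 2 (log2 fold change 0.33, edgeR adjusted p = 0.0318, in a leave-one-out range of 0.0318 to 0.694).

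TEAD4 (ENSG00000197905.7, chromosome 12, 2959330 to 3040673, plus strand) was a low-level TEAD factor, with 8.14 and 10.6 normalised CPM in oeSRPK1, 10.5 and 11.3 in shSRPK1, and 12.0 and 10.7 in NT. The oeSRPK1 values were below NT, and the shSRPK1 values overlapped both other groups. These rest on 181 and 41 reads in oeSRPK1, 139 and 118 in shSRPK1, and 124 and 151 in NT. The ratio was 0.797 in oeSRPK1 against NT (95% interval 0.582 to 1.09, edgeR adjusted p = 0.272) and 0.961 in shSRPK1 against NT (0.711 to 1.30, edgeR adjusted p = 0.868).

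Among the other TEAD genes, TEAD3 had 17.7 and 16.8 normalised CPM in oeSRPK1, 21.6 and 27.7 in shSRPK1, and 28.8 and 27.8 in NT. It fell in oeSRPK1 against NT (log2 fold change -0.70 ± 0.16, edgeR adjusted p = 0.0200), a call that ended without NT library 1, NT library 2, oeSRPK1 library 1 or oeSRPK1 library 2, with 0 calls in each of these fits and 2 lower calls in the list without either shSRPK1 library. TEAD2 did not pass in that comparison (log2 fold change -0.37 ± 0.17, edgeR adjusted p = 0.147). Of the 6 other TEAD genes and TEAD cofactors of the VGLL family, 4 were tested, TEAD3 was the single call in oeSRPK1 against NT (beside 20.6% of all tested genes), and 0 were called in shSRPK1 against NT (beside 9.18%) and in oeSRPK1 against shSRPK1 (beside 22.8%, with 0 and 1 at an unadjusted p under 0.05 in shSRPK1 against NT and oeSRPK1 against shSRPK1). Leaving out shSRPK1 library 2 gave 1 lower call in shSRPK1 against NT, and leaving out library 1 gave 2 in oeSRPK1 against shSRPK1. VGLL1 and VGLL2 had 0 reads in all libraries.

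Within each library, which needs no scaling between libraries, TEAD1 made up 63.6 ± 3.40% of the summed TEAD level per kb in oeSRPK1 cells, 53.5 ± 1.45% in shSRPK1 and 48.0 ± 0.808% in NT (SD, n = 2 each). TEAD3 made up 11.7 ± 0.230% in oeSRPK1, 16.9 ± 1.09% in shSRPK1 and 19.8 ± 0.860% in NT. TEAD4 took 8.56 ± 2.07% in oeSRPK1, 10.1 ± 0.617% in shSRPK1 and 10.6 ± 0.182% in NT. The summed TEAD level itself was 48.5 ± 2.79 normalised CPM per kb in oeSRPK1, 47.6 ± 5.33 in shSRPK1 and 47.0 ± 3.22 in NT, differences within the spread between libraries. These shares are a description, and no test of them was run.

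**Figure D3:**
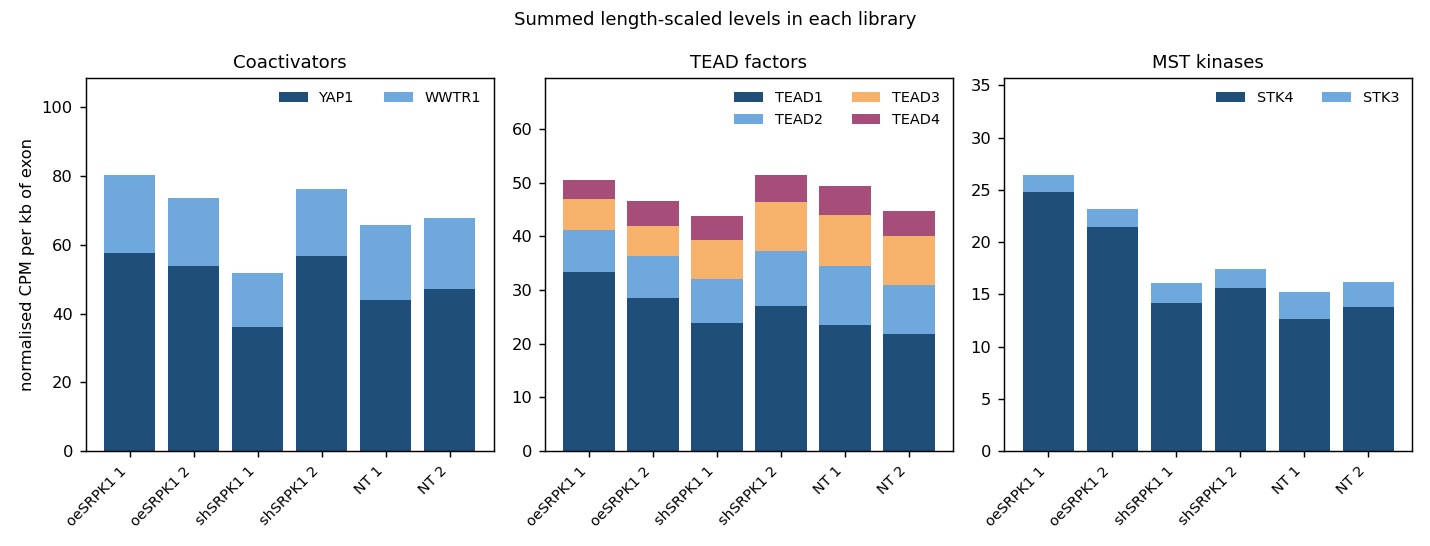
Summed level per kb of exon (y axis, normalised CPM per kb) of the coactivators, the TEAD factors and the upstream kinases in each library, stacked by gene. The TEAD columns are of like height in all libraries while TEAD1 takes 63.6% of them on average in oeSRPK1 cells and 48.0% in NT cells.

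Among the regulators, AJUBA (ENSG00000129474.14, chromosome 14, 22971174 to 22982642, minus strand), a LIM protein that binds LATS kinases and limits their action on YAP1, had the largest called change of the 10. It had 39.1 and 40.3 normalised CPM in oeSRPK1, 21.8 and 33.5 in shSRPK1, and 21.6 and 23.0 in NT. Both oeSRPK1 libraries were above the other 4, and shSRPK1 library 2 stood apart from library 1, which lay among the NT values. AJUBA rose 1.78-fold in oeSRPK1 against NT (log2 fold change 0.83 ± 0.20, edgeR adjusted p = 0.0238), with a 95% interval of 1.30 to 2.44 for the ratio. The log2 fold change was 0.78 to 0.87 in all leave-one-out fits, but with 1 library fewer in either group the call ended: the edgeR adjusted p was 0.173 without NT library 1, 0.139 without NT library 2, 0.188 without oeSRPK1 library 1 and 0.110 without oeSRPK1 library 2, within a leave-one-out range of 1.04e-05 to 0.188. Its ratio in shSRPK1 against NT was 1.23 (0.902 to 1.69, edgeR adjusted p = 0.346), with a log2 fold change of 0.58 (edgeR adjusted p = 0.00301) without shSRPK1 library 1 and -0.03 without library 2, in a leave-one-out range of 0.00301 to 0.897 for the adjusted p. The ratio of 1.44 in oeSRPK1 against shSRPK1 did not pass (1.05 to 1.97, edgeR adjusted p = 0.0885). Without shSRPK1 library 2 the log2 fold change of 0.53 ± 0.20 was 0.82 and called (edgeR adjusted p = 0.000111, in a leave-one-out range of 0.000111 to 0.344). The gene AL132780.3 shares 50 bases of exon with AJUBA, 0.8363% of its exons.

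LATS2 (ENSG00000150457.8, chromosome 13, 20973032 to 21061547, minus strand) encodes a kinase that phosphorylates YAP1 and WWTR1, and is itself a known target of YAP1, which makes it part of a feedback loop. It had 42.8 and 40.1 normalised CPM in oeSRPK1, 31.4 and 28.3 in shSRPK1, and 36.8 and 37.1 in NT, so that the 3 groups did not overlap, with NT between the others. LATS2 rose 1.39-fold in oeSRPK1 against shSRPK1 (log2 fold change 0.48 ± 0.12, edgeR adjusted p = 0.0296), with a 95% interval of 1.14 to 1.69 for the ratio. The call ended without NT library 1 (edgeR adjusted p = 0.0871), NT library 2 (0.0848), oeSRPK1 library 1 (0.257) or oeSRPK1 library 2 (0.0949), within a leave-one-out range of 0.00457 to 0.257 and of 0.37 to 0.53 for the log2 fold change. It also missed the threshold with no filter (edgeR adjusted p = 0.0656), with DESeq2 (0.0604), with limma-voom fitted with a spread per group (0.0531) and with NT left out of the edgeR fit (0.0809). Against NT, the ratio was 1.13 in oeSRPK1 (0.926 to 1.37, edgeR adjusted p = 0.352) and 0.809 in shSRPK1 (0.666 to 0.983, edgeR adjusted p = 0.145), and the log2 fold change in shSRPK1 of -0.31 ± 0.12 passed without shSRPK1 library 1 (-0.38, edgeR adjusted p = 0.0389, in a leave-one-out range of 0.0389 to 0.505).

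AMOTL2 (ENSG00000114019.13, chromosome 3, 134355874 to 134375479, minus strand) encodes an angiomotin-like protein that binds YAP1 and holds it outside the nucleus, and it is a known YAP1 target as well. It had 63.2 and 56.6 normalised CPM in oeSRPK1, 58.5 and 54.9 in shSRPK1, and 75.2 and 77.0 in NT. All 4 transfected libraries lay below both NT libraries, and the transfected groups overlapped. The ratio was 0.791 in oeSRPK1 against NT (95% interval 0.658 to 0.9499, edgeR adjusted p = 0.0721) and 0.745 in shSRPK1 against NT (0.621 to 0.893, edgeR adjusted p = 0.0554), both just above the threshold of 0.05, and 1.06 in oeSRPK1 against shSRPK1 (0.883 to 1.28, edgeR adjusted p = 0.616). Both comparisons with NT were called without either shSRPK1 library. For oeSRPK1 against NT the edgeR adjusted p was then 0.00478 without library 1 and 0.00429 without library 2, in a leave-one-out range of 0.00429 to 0.300. For shSRPK1 against NT it was 0.00576 without library 1 and 0.0177 without library 2, in a range of 0.00576 to 0.352. The pseudogene RPL39P5 shares 187 bases of exon with AMOTL2 (3.125% of its exons).

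Among the targets, CCN1 (CYR61 in GENCODE 29, ENSG00000142871.14, chromosome 1, 85580761 to 85583962, plus strand), a secreted matricellular protein and an early target of YAP1, had 109 and 104 normalised CPM in oeSRPK1, 171 and 107 in shSRPK1, and 123 and 153 in NT. The oeSRPK1 values lay below NT, and the shSRPK1 libraries lay on either side of NT, 1.60-fold apart. The ratio was 0.772 in oeSRPK1 against NT (95% interval 0.541 to 1.10, edgeR adjusted p = 0.266), 1.01 in shSRPK1 against NT (0.712 to 1.44, edgeR adjusted p = 0.967) and 0.763 in oeSRPK1 against shSRPK1 (0.535 to 1.09, edgeR adjusted p = 0.233). As for YAP1, the sign in shSRPK1 against NT turned on 1 library, with a log2 fold change of -0.36 without shSRPK1 library 1 (edgeR adjusted p = 0.0369) and 0.32 without library 2 (edgeR adjusted p = 0.0534). The libraries went the opposite way from YAP1, since shSRPK1 library 1 was the higher for CCN1 and library 2 the higher for YAP1. The log2 fold change of -0.37 ± 0.22 in oeSRPK1 against NT was -0.41 without either shSRPK1 library, with an edgeR adjusted p of 0.00311 without library 1 and 0.00301 without library 2. That of oeSRPK1 against shSRPK1 was -0.73 without shSRPK1 library 2 (edgeR adjusted p = 8.59e-05) and -0.04 without library 1. The edgeR adjusted p of CCN1 ran over the leave-one-out fits from 0.00301 to 0.686 in oeSRPK1 against NT, from 0.0369 to 0.978 in shSRPK1 against NT and from 8.59e-05 to 0.812 in oeSRPK1 against shSRPK1.

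CCN2 (CTGF in GENCODE 29, ENSG00000118523.5, chromosome 6, 131948176 to 131951373, minus strand), the related connective tissue growth factor whose promoter held 3 GGAATG matches, had 35.9 and 35.7 normalised CPM in oeSRPK1, 32.0 and 26.7 in shSRPK1, and 34.5 and 35.7 in NT. The oeSRPK1 and NT libraries overlapped, and both shSRPK1 libraries were below them. The ratio was 1.02 in oeSRPK1 against NT (95% interval 0.823 to 1.26, edgeR adjusted p = 0.908), 0.837 in shSRPK1 against NT (0.678 to 1.03, edgeR adjusted p = 0.241) and 1.22 in oeSRPK1 against shSRPK1 (0.981 to 1.51, edgeR adjusted p = 0.163). Without shSRPK1 library 1, edgeR called CCN2 lower in shSRPK1 against NT (log2 fold change -0.40, adjusted p = 0.0353) and higher in oeSRPK1 against shSRPK1 (0.39, adjusted p = 0.0316), with leave-one-out ranges of 0.0353 to 0.567 and 0.0316 to 0.501. The antisense gene AL133346.1 shares 195 bases of exon with CCN2, 8.337% of its exons. Of the 4 other CCN genes, 2 were tested, and in oeSRPK1 against shSRPK1 CCN4 was called (beside 22.8% of all tested genes), named here after its values were seen. CCN4 had 85.1 and 76.0 normalised CPM in oeSRPK1, 48.9 and 23.6 in shSRPK1, and 48.7 and 53.8 in NT, so shSRPK1 library 1 lay at the NT level. The log2 fold change in oeSRPK1 against shSRPK1 was 1.15 ± 0.31 (edgeR adjusted p = 0.0428). This call ended without NT library 1, NT library 2, oeSRPK1 library 1 or oeSRPK1 library 2. CCN4 was not called in oeSRPK1 against NT (0.66 ± 0.31, edgeR adjusted p = 0.179) or in shSRPK1 against NT (-0.49 ± 0.31, edgeR adjusted p = 0.340).

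ANKRD1 (ENSG00000148677.6, chromosome 10, 90912096 to 90921276, minus strand), an ankyrin repeat protein known both as a YAP1 target and as a gene of heart and skeletal muscle, was close to the detection floor. It had 41 and 6 reads in oeSRPK1, 44 and 7 in shSRPK1, and 5 and 8 in NT, or 1.84 and 1.55 normalised CPM in oeSRPK1, 3.32 and 0.669 in shSRPK1, and 0.485 and 0.565 in NT. All transfected libraries were above NT, and shSRPK1 library 1 stood 4.96-fold above library 2. ANKRD1 passed the filter through transfected libraries, so this position and its values against NT are not independent of the filter. The ratio was 3.32 in oeSRPK1 against NT (95% interval 0.986 to 11.2, edgeR adjusted p = 0.144) and 3.89 in shSRPK1 against NT (1.21 to 12.5, edgeR adjusted p = 0.126), with no call. Without shSRPK1 library 2 the log2 fold change of shSRPK1 against NT was 2.65 (edgeR adjusted p = 0.000182), and without library 1 it was 0.34 (edgeR adjusted p = 0.778), against 1.96 ± 0.73 with both. For oeSRPK1 against NT the log2 fold change of 1.73 ± 0.76 was 1.70 without either shSRPK1 library, with an edgeR adjusted p of 0.0111 without library 1 and 0.00427 without library 2. Over all leave-one-out fits it ran from 0.00427 to 0.551 in oeSRPK1 against NT and from 0.000182 to 0.778 in shSRPK1 against NT. The muscle markers summed to 396 and 3631 normalised CPM in oeSRPK1, 77.4 and 84.8 in shSRPK1, and 70.4 and 72.7 in NT, and their part in the ANKRD1 levels was not tested.

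Side by side in oeSRPK1 against NT, the 3 targets had ratios of 0.772 for CCN1, 1.02 for CCN2 and 3.32 for ANKRD1, none called. The ratios in shSRPK1 against NT were 1.01 for CCN1, 0.837 for CCN2 and 3.89 for ANKRD1, none called.

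The genes whose log2 CPM followed 3 members most closely over the 6 libraries, among 5903 genes of at least moderate level, are given as a description. For YAP1 they were GADD45A (Pearson r = 0.988), DPY19L3 (0.988) and RTN4 (0.983), with 43 genes over an r of 0.95. For CCN1 they were CAND1 (0.983), ALDH18A1 (0.978) and GLRX (0.972), with 6 genes over 0.95. For CCN2 they were MYNN (0.994), SYNGR2 (0.989) and GTF3A (0.983), with 31 over 0.95. The points share the 6 libraries and their groups.

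Upstream in the pathway, 32 of 33 listed Hippo genes were tested. In oeSRPK1 against NT, 6 rose and 2 fell by edgeR (beside 11.2% and 9.45% of all tested genes), and the median log2 fold change was 0.04. STK4, which encodes the kinase MST1 that activates LATS kinases, had 225 and 195 normalised CPM in oeSRPK1, 129 and 142 in shSRPK1, and 115 and 125 in NT. It rose in oeSRPK1 against NT (log2 fold change 0.81 ± 0.13, edgeR adjusted p = 0.00560). FRMD6, a FERM-domain protein that acts upstream of the MST kinases, had 116 and 96.2 normalised CPM in oeSRPK1, 47.7 and 36.9 in shSRPK1, and 52.4 and 63.1 in NT, and rose as well (0.89 ± 0.17, edgeR adjusted p = 0.0107). MAP4K4, a kinase that phosphorylates LATS kinases, rose by a log2 fold change of 0.60 ± 0.12 (edgeR adjusted p = 0.0153), and RASSF1, a scaffold that binds MST kinases, by 0.55 ± 0.13 (edgeR adjusted p = 0.0223). Leaving out NT library 1, NT library 2 or oeSRPK1 library 1 left 0 higher and 0 lower calls in the list, leaving out oeSRPK1 library 2 left 3 and 0, and leaving out either shSRPK1 library gave 9 higher and 8 lower, beside 41.8% and 40.5% of all tested genes called in these last fits.

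STK3, the paralogue of STK4 that encodes MST2 and was picked out after its values were seen, fell in oeSRPK1 against NT (log2 fold change -0.56 ± 0.13, edgeR adjusted p = 0.0239), with 20.3 and 21.7 normalised CPM in oeSRPK1, 23.4 and 22.1 in shSRPK1, and 32.5 and 29.2 in NT. STK4 made up 93.2 ± 0.947% of the summed STK3 and STK4 level per kb in oeSRPK1, 89.2 ± 1.04% in shSRPK1 and 84.3 ± 1.85% in NT (SD, n = 2 each). The sum was 24.8 ± 2.29 normalised CPM per kb in oeSRPK1, 16.7 ± 0.928 in shSRPK1 and 15.7 ± 0.650 in NT. LATS2 made up 65.2 ± 3.37% of the summed LATS1 and LATS2 level per kb in oeSRPK1, 67.1 ± 3.90% in shSRPK1 and 71.5 ± 2.26% in NT.

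In shSRPK1 against NT, 1 of the 32 Hippo genes rose and 0 fell, beside 5.43% and 3.75% of all tested genes. This was WWC2, a relative of the scaffold KIBRA (log2 fold change 0.60 ± 0.15, edgeR adjusted p = 0.0455), with 77.0 and 102 normalised CPM in shSRPK1, against 59.0 and 58.6 in NT. DESeq2 also called WWC2, while limma-voom, the replicate block and the edgeR fit of only the libraries compared did not. The list gave 0 calls in either direction without NT library 1, NT library 2, oeSRPK1 library 1 or oeSRPK1 library 2, 2 higher and 3 lower without shSRPK1 library 1, and 5 higher and 7 lower without shSRPK1 library 2. In oeSRPK1 against shSRPK1, 7 rose and 1 fell, beside 11.5% and 11.3% of all tested genes. The calls were led by FRMD6 (log2 fold change 1.33 ± 0.17, edgeR adjusted p = 0.00325), STK4 (0.63 ± 0.13, edgeR adjusted p = 0.0128), WWC1, which encodes KIBRA (1.53 ± 0.35, edgeR adjusted p = 0.0199), and RASSF1 (0.51 ± 0.13, edgeR adjusted p = 0.0279). Without NT library 1 or NT library 2 there were 3 higher and 0 lower, without oeSRPK1 library 1 there were 0 and 0, without oeSRPK1 library 2 there were 2 and 0, without shSRPK1 library 1 there were 7 and 4, and without shSRPK1 library 2 there were 8 and 8.

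**Figure D4:**
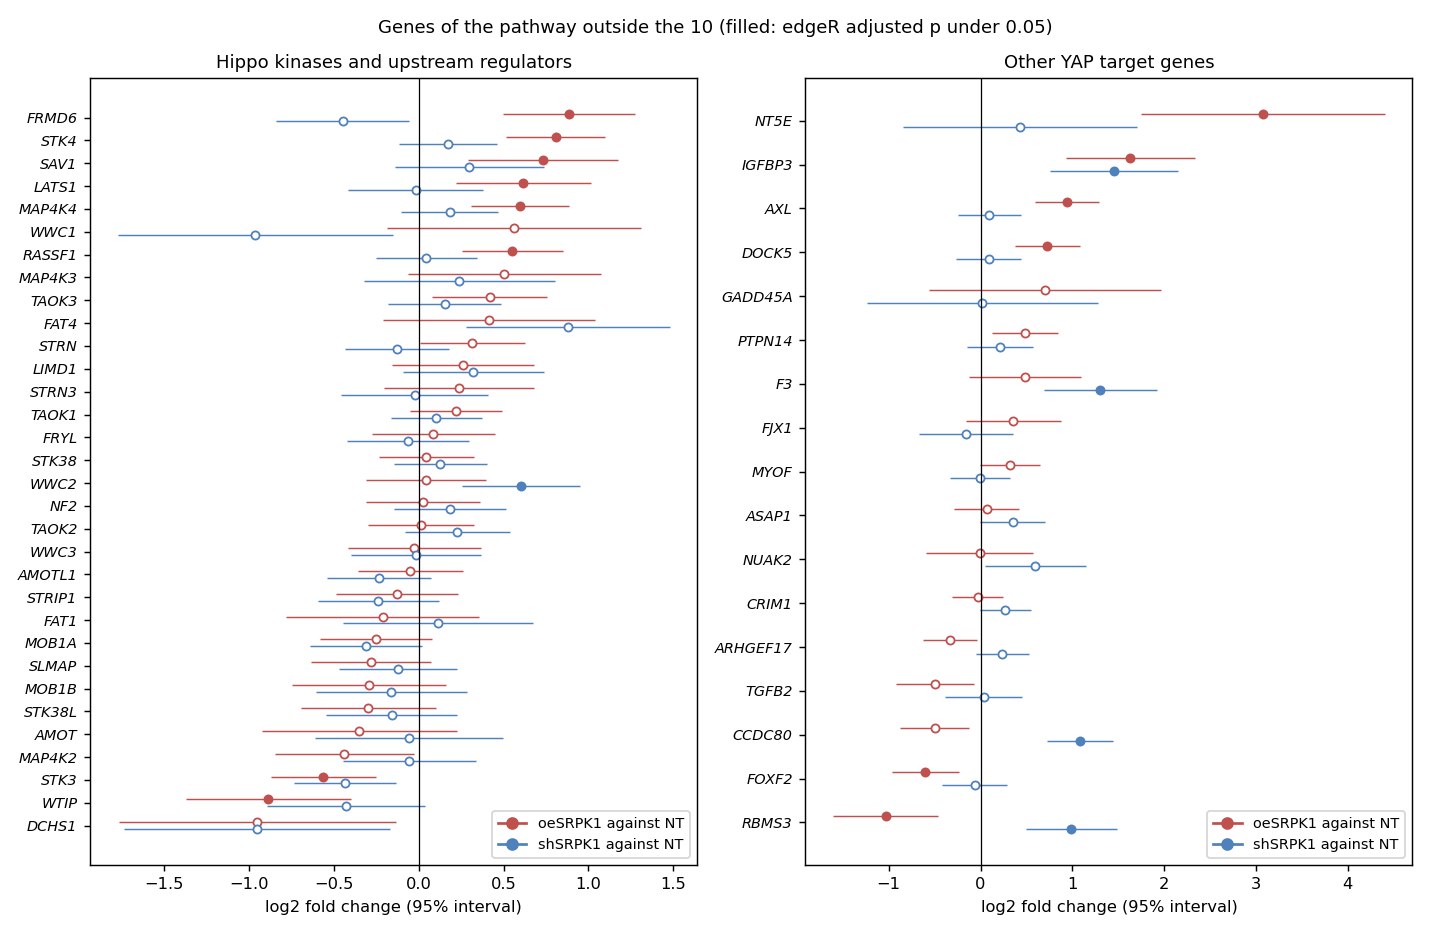
EdgeR log2 fold changes (x axis, with 95% intervals) of the tested Hippo genes (left) and other YAP targets (right) outside the 10, in oeSRPK1 against NT (red) and shSRPK1 against NT (blue), with filled points for adjusted p under 0.05. STK4 and FRMD6 have filled points in oeSRPK1 against NT, and RBMS3 has filled points on opposite sides of 0 (-1.04 and 0.99).

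Other known YAP targets, 17 genes outside the 10 and all tested, moved in both directions. In oeSRPK1 against NT, 4 rose and 2 fell by edgeR, beside 11.2% and 9.45% of all tested genes. The median log2 fold change was 0.32, against -0.00 over all tested genes. The receptor tyrosine kinase AXL had 692 and 599 normalised CPM in oeSRPK1, 396 and 320.0 in shSRPK1, and 347 and 324 in NT, and rose (log2 fold change 0.95 ± 0.15, edgeR adjusted p = 0.00601). NT5E, the ectonucleotidase CD73, had 289.7 and 230.3 normalised CPM in oeSRPK1, 61.5 and 21.3 in shSRPK1, and 28.2 and 33.5 in NT, and rose by 3.08 ± 0.52 (edgeR adjusted p = 0.0182). IGFBP3, which binds insulin-like growth factors, rose by 1.63 ± 0.30 (edgeR adjusted p = 0.0110), and DOCK5, an exchange factor for Rac, by 0.73 ± 0.15 (edgeR adjusted p = 0.0156). The list gave 0 calls without NT library 1, NT library 2 or oeSRPK1 library 1, 2 higher and 0 lower without oeSRPK1 library 2, and 8 higher and 5 lower without either shSRPK1 library.

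Of these 17 targets, 4 rose in shSRPK1 against NT and 0 fell, beside 5.43% and 3.75% of all tested genes. With oeSRPK1 left out of the edgeR fit, 0 of the 17 were called, beside 89 higher and 40 lower of 14279 tested genes. The median log2 fold change was 0.24, against 0.01 over all tested genes. CCDC80, a matrix protein, had 121 and 89.5 normalised CPM in shSRPK1, against 49.4 and 50.1 in NT (log2 fold change 1.08 ± 0.16, edgeR adjusted p = 0.00995). F3, the tissue factor that starts coagulation, rose by 1.31 ± 0.26 (edgeR adjusted p = 0.0282), IGFBP3 by 1.45 ± 0.30 (edgeR adjusted p = 0.0286) and the RNA-binding protein RBMS3 by 0.99 ± 0.22 (edgeR adjusted p = 0.0312). F3 had 719 and 1187 normalised CPM in shSRPK1, against 317 and 454 in NT. IGFBP3 had 5450 and 2989 in shSRPK1, against 1300 and 1787 in NT. Without NT library 1 or NT library 2 there were 0 calls, without oeSRPK1 library 1 or library 2 there was 1, without shSRPK1 library 1 there were 10 higher and 1 lower, and without shSRPK1 library 2 there were 5 higher and 1 lower.

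In oeSRPK1 against shSRPK1, 3 of the 17 targets rose and 4 fell, beside 11.5% and 11.3% of all tested genes. The median log2 fold change was -0.28, against -0.00 over all tested genes. CCDC80 had 36.6 and 33.3 normalised CPM in oeSRPK1, against 121 and 89.5 in shSRPK1, and fell by 1.58 on the log2 scale (SE 0.16, edgeR adjusted p = 0.00176). RBMS3 fell by 2.03 on the log2 scale (SE 0.24, edgeR adjusted p = 0.00281), while AXL rose by 0.85 ± 0.15 (edgeR adjusted p = 0.00845). There was 1 higher and 2 lower without NT library 1 or NT library 2, 0 and 2 without oeSRPK1 library 1, 2 and 2 without oeSRPK1 library 2, 5 and 9 without shSRPK1 library 1, and 6 and 4 without shSRPK1 library 2.

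Targets of SRF, the serum response factor, whose gene set partly overlaps that of YAP1, were looked at beside them, and 17 of 20 were tested. In oeSRPK1 against NT, 2 rose and 0 fell, beside 11.2% and 9.45% of all tested genes. These were the tropomyosin gene TPM1 (log2 fold change 0.82 ± 0.16, edgeR adjusted p = 0.0131) and FHL2, a LIM protein (0.41 ± 0.12, edgeR adjusted p = 0.0423). In shSRPK1 against NT, 2 rose and 0 fell, beside 5.43% and 3.75% of all tested genes, namely TPM1 (0.90 ± 0.16, edgeR adjusted p = 0.0199) and the calponin gene CNN2 (0.42 ± 0.11, edgeR adjusted p = 0.0468). In oeSRPK1 against shSRPK1, 1 rose and 3 fell, beside 11.5% and 11.3% of all tested genes. FHL2 rose (0.80 ± 0.12, edgeR adjusted p = 0.00458), while CALD1, CNN2 and ACTA2, of which the first 2 encode actin-binding proteins and ACTA2 an actin, fell by 0.75, 0.41 and 0.73 on the log2 scale (edgeR adjusted p = 0.0209, 0.0302 and 0.0387). TPM1, which muscle also expresses, had 807 and 804 normalised CPM in oeSRPK1, 938 and 768 in shSRPK1, and 403 and 508 in NT, and the part of the muscle transcripts in these levels was not tested.

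The calls in the SRF list also turned on single libraries. Without oeSRPK1 library 1, the gene called higher in oeSRPK1 against NT was TPM2, and not TPM1 or FHL2. TPM2 had 285 and 944 normalised CPM in oeSRPK1 libraries 1 and 2, 426 and 335 in shSRPK1, and 241 and 283 in NT. With all libraries it was not called (log2 fold change 1.22 ± 0.56, edgeR adjusted p = 0.194). The part of the muscle transcripts in the TPM2 levels was not tested. In oeSRPK1 against NT there were 0 without NT library 1, NT library 2 or oeSRPK1 library 2, 1 higher without oeSRPK1 library 1, and 4 higher and 2 lower without either shSRPK1 library. For shSRPK1 against NT there were 0 without any 1 of the NT and oeSRPK1 libraries, 4 higher and 2 lower without shSRPK1 library 1, and 9 higher and 1 lower without library 2. For oeSRPK1 against shSRPK1 there was 1 higher and 0 lower without NT library 1, NT library 2 or oeSRPK1 library 2, and 0 without oeSRPK1 library 1. The same list gave 3 higher and 5 lower without shSRPK1 library 1, and 1 higher and 9 lower without library 2.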

How the data were processed

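Poly(A) RNA of 6 T98G libraries was sequenced as paired reads of 101 bp, per the labels' protocols. The authors deposited raw read counts for each gene, with a table for each library. The submitters' processing notes name FastQC, Trimmomatic, STAR 2.5.3 and the build hg38. How reads were counted, with which annotation release and strand setting, was not given in the sources used here. The 5 entries per table that name no gene were left out: reads in no feature (8.13% to 11.1% of the total), with several alignments (11.95% to 13.1%) and ambiguous (3.04% to 3.37%). A gene name table gave symbols for 41124 ids and GENCODE 29 (GRCh38) for a further 15629, while 3730 had none. Positions and exon lengths are those of GENCODE 29.

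The counts were analysed in R 4.3.3 with edgeR 4.0.16, using filterByExpr (minimum count 10, minimum total 15), TMM scaling, and glmQLFit with robust estimation and glmQLFTest on all 6 libraries, which share 1 spread (biological coefficient of variation 14.5%). The tested genes held 99.8% of gene reads, and Benjamini-Hochberg adjustment ran over all 14732. Since the shSRPK1 replicates differed most in the median over genes, the shared spread may be too wide for the other groups and too narrow for shSRPK1. This does not hold for every gene: the TEAD4 libraries lay 1.30-fold apart in oeSRPK1 and 1.08-fold in shSRPK1. Log2 CPM has a prior count of 2. A floor of 3 counts stood for 0.132 to 0.771 CPM of gene reads. The fit was tested on simulated data with the same spread in all groups, which does not test it under the unequal spread seen here. Other settings were 2 other scalings, 2 other filters, a threshold of 0.01, DESeq2 1.42.0, limma-voom (limma 3.58.1) with and without a spread per group, fewer libraries, a replicate block, thinning, and tables without muscle markers. The members, lists and tests were chosen with earlier results of these data known. Named genes were the 10 members, SRPK1, up to 4 called genes with the smallest adjusted p per comparison from each list of other TEAD and VGLL, Hippo, other YAP target and SRF target genes, and the 3 genes most like YAP1, CCN1 and CCN2. The result of 1 gene that this rule names is not reported here.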

Additional observations from a re-analysis of the deposited data

How the results depend on the processing

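With 2 libraries a group, no call among the 10 genes held in every fit, and the number called in oeSRPK1 against NT (2), shSRPK1 against NT (0) and oeSRPK1 against shSRPK1 (1) ran over the leave-one-out fits from 0 to 6, 0 to 6 and 0 to 6, as the share of all tested genes called ran from 1.94% to 41.8%, 0.182% to 29.01% and 0.952% to 38.8%. The depth of oeSRPK1 library 2, the shallowest, limits low genes such as ANKRD1, which the filter removed after thinning. In oeSRPK1 against NT the count was 1 with DESeq2 size factors (20.5% of all tested genes called), upper-quartile scaling (20.9%), the replicate block (17.9%) or thinning (17.8%). It was 4 with no filter (14.3%) or with limma-voom with a spread per group (42.3%), and 6 with only the libraries compared (44.2%). Those 6 were TEAD1, AJUBA, YAP1 and ANKRD1 higher, and CCN1 and AMOTL2 lower. At an adjusted p under 0.01 the count was 0 (6.71%). In shSRPK1 against NT it was 1 with upper-quartile scaling (9.35%) and 2 with no filter (9.17%). In oeSRPK1 against shSRPK1 it was 2 with no filter (15.6%) and 0 at 0.01 (6.58%), with DESeq2 (18.8%), with limma-voom with a spread per group (17.8%) and with only the libraries compared (10.4%). The replicate block uses the replicate numbers, and whether libraries of the same number were handled together is not stated. Their deviations from the group means correlated at 0.01 (NT and shSRPK1), -0.02 (NT and oeSRPK1) and 0.02 (shSRPK1 and oeSRPK1). With the block the counts were 1, 0 and 1, since TEAD1 then missed the threshold (edgeR adjusted p = 0.0755). Of all 14732 tested genes, the block gave 1467 higher and 1172 lower in oeSRPK1 against NT. It gave 624 and 382 in shSRPK1 against NT, and 1451 and 1395 in oeSRPK1 against shSRPK1. Log2 fold changes that turned sign were all uncalled with all libraries. They were, in oeSRPK1 against NT, WWTR1 (-0.032 upper quartile, -0.053 no filter, -0.0072 only the libraries compared) and CCN2 (-0.019 upper quartile, -0.039 no filter); in shSRPK1 against NT, YAP1 (-0.0015 limma-voom, -0.0037 with a spread per group) and CCN1 (-0.0045 upper quartile, -0.014 with limma-voom, -0.013 with a spread per group, -0.0060 with the replicate block); and in oeSRPK1 against shSRPK1, ANKRD1 (0.13 with both limma-voom fits). Leave-one-out ranges that crossed 0 were, in oeSRPK1 against NT, -0.12 to 0.10 for WWTR1 and -0.012 to 0.046 for CCN2; in shSRPK1 against NT, -0.33 to 0.32 for YAP1, -0.15 to 0.027 for TEAD4, -0.031 to 0.58 for AJUBA and -0.36 to 0.32 for CCN1; and in oeSRPK1 against shSRPK1, -0.062 to 0.58 for YAP1, -0.038 to 0.16 for AMOTL2 and -0.95 to 1.36 for ANKRD1. Over the 3 comparisons, 129 of 180 leave-one-out fold changes kept their direction and their side of the threshold, as did 314 of 353 under the other alternatives. Most of these values were uncalled in the main fit, so the counts mostly hold uncalled genes that stayed uncalled. The threshold of 0.01 reused the main fold changes and could not turn a direction. The cause of the shifts between fits was not tested.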
